A study of Mus musculus with 12 samples.

Results

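The genes described here carry or load peptides for display to T cells. They are the genes of the mouse major histocompatibility complex (MHC, called H2 in the mouse) together with the genes that make, trim, move and regulate what these molecules present. Members were taken by name and not by their values: every gene whose only annotated symbol starts with H2-, plus B2m, Tap1, Tap2, Tapbp, Tapbpl, Cd74, Ciita, Nlrc5 and Erap1. This gave 38 of the 19938 measured genes, 29 of them H2 genes, and 32 of the 38 lie on chromosome 17. Where several probe sets measured a gene, the brightest on average stood for it. Nlrc5 was the 1 member with more than 1 probe set.

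RNA from flushed uterine horns and flushed oviducts of early pregnant mice was hybridised to 12 Affymetrix mouse gene arrays. The 4 groups were estradiol (E2) uterus, oil uterus, E2 oviduct and oil oviduct, with 3 biological replicates each. E2 mice received 10 µg/kg E2 under the skin on days 0.5, 1.5 and 2.5 after mating, oil mice received the sesame oil vehicle alone (0 µg/kg) on the same days, and all tissue was taken on day 3.5. All mice were pregnant; the labels give neither strain nor age. Whether uterus and oviduct of the same number came from the same mouse is not stated either. Values below are log2 of the deposited RMA intensities, and differences between groups are log2 fold changes.

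Class I molecules are a heavy chain joined to beta-2 microglobulin, and they show nucleated cells' own peptides to CD8 T cells. Those peptides are cut by the proteasome, pumped into the endoplasmic reticulum by the TAP transporter, trimmed by Erap1 and loaded with the help of tapasin. Class II molecules are an alpha and a beta chain held by the invariant chain Cd74 and are made mainly by dendritic cells, macrophages and B cells, which show engulfed peptides to CD4 T cells. Ciita is the master switch of class II genes and Nlrc5 its counterpart for class I. In the uterus these genes are read in a tissue that also must tolerate the embryo.

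The labelled tissues carried their markers. Mean log2 values of Hoxa10, Hoxa11, Hoxd10 and Hoxd11 lay between 8.55 and 10.43 in uterus groups and between 5.61 and 7.43 in oviduct groups. The cilium gene Dnah5 averaged 5.49 in E2 uteri and 6.16 in oil uteri, against 9.95 in E2 oviducts and 9.88 in oil oviducts. Array medians were close, from 6.48 to 6.54. Oil replicate 3 stood apart from the other oil arrays in both tissues, as described below for the members, so the main comparisons are also given without both oil replicate 3 arrays. On the oviduct array of that number the 4 measured corpus luteum markers were 2.94 to 6.88 log2 units above the other oil oviducts. In whole tissue, fewer cells of a type and less RNA per cell cannot be told apart. Of the 38 members, 22 (57.9%) stayed below the highest value of any Y-linked gene (7.50, Sry) on all arrays, against 51.4% of all genes. The 12 H2-M genes are among these, and changes among such dim members have little signal behind them. Sry alone set this mark, as the highest value of the other Y-linked genes was 5.36.

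Part of this set rose in the uterus with E2. With all arrays the largest called increases were those of the class I genes H2-T24 (2.48-fold) and H2-K2 (2.37-fold) and the class II chain gene H2-Aa (1.97-fold), and the peptide loading genes Tap1 and Tapbpl and the class II coactivator Ciita rose too. In limma's fit over all genes, with Benjamini-Hochberg adjustment and a threshold of 0.05, 11 of 38 members (28.9%) rose and 0 fell, where 12.4% of all genes rose and 14.3% fell. The median change over the 38 members was 0.241, against -0.001 over all genes. When both oil replicate 3 arrays were left out, 15 members (39.5%) rose and 0 fell, against 13.5% and 14.5% of all genes. These arrays were left out because they stood apart in these same data, so the higher count is not separate support. Without oil uterus replicate 3 alone 8 members were called, and 4677 of all 19938 genes. Without oil oviduct replicate 3 alone 14 members were called, and 5887 of all genes. In the oviduct 0 of 38 members rose and 0 fell, against 0.16% and 0.13% of all genes, with 1 member at an unadjusted p under 0.05. Without both oil replicate 3 arrays the oviduct counts were again 0 higher and 0 lower (0.246% and 0.361% of all genes), with 1 member at an unadjusted p under 0.05.

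**Figure D1:**
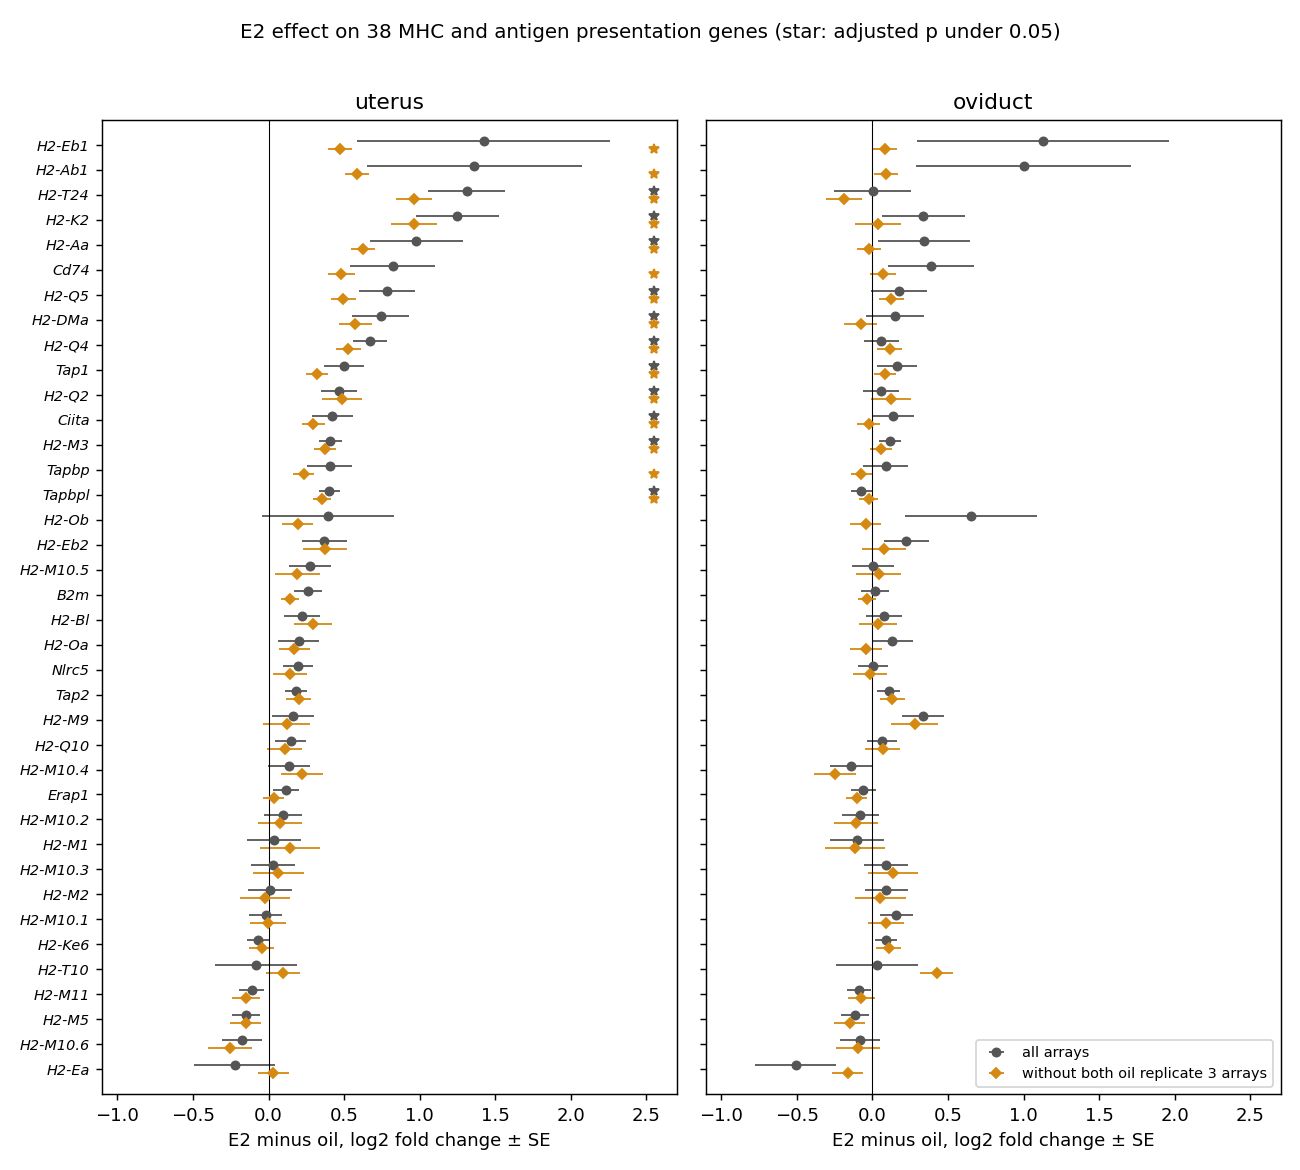
E2 minus oil log2 fold change (horizontal axis, ± SE of the limma fit) for each of the 38 members (vertical axis, ordered by the uterine change), in the uterus on the left and the oviduct on the right. Grey circles use all arrays and orange diamonds leave out both oil replicate 3 arrays; a star at the right edge marks an adjusted p under 0.05, and all stars are in the uterus, 11 grey and 15 orange.

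H2-Aa encodes the alpha chain of the I-A molecule. Its log2 values were 10.75, 10.69 and 10.51 in E2 uteri, against 10.02, 10.03 and 8.97 in oil uteri. The groups did not overlap, and the lowest value was oil replicate 3. The increase was 0.98 (SE 0.31, limma adjusted p = 0.034), or 1.97-fold. It was 0.63 without both oil replicate 3 arrays (SE 0.080, adjusted p = 0.00026). In the oviduct H2-Aa read 10.84, 10.88 and 10.78 after E2, against 10.83, 10.88 and 9.76 after oil, so those groups overlapped and only oil replicate 3 was low. The call in the uterus also ended when any of the E2 uterus arrays was left out (up to 1.05) or oil uterus replicate 3 alone (0.63, adjusted p = 0.12).

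H2-Ab1, the beta chain paired with H2-Aa, read 10.49, 10.43 and 10.31 in E2 uteri, against 9.89, 9.75 and 7.49 in oil uteri. All E2 uteri exceeded all oil uteri, but 1 oil array was far below the other 2. With all arrays the difference of 1.36 (SE 0.71) had a limma adjusted p of 0.20. The difference was smaller and its error smaller still without both oil replicate 3 arrays, at 0.58 (SE 0.080, adjusted p = 0.00041). Without oil uterus replicate 3 alone the difference was 0.58 too, but it did not pass (adjusted p = 0.61). The low oil oviduct array then still entered the shared estimate of spread. In oviducts H2-Ab1 had 10.51, 10.59 and 10.48 with E2, against 10.48, 10.39 and 7.71 with oil, and the difference of 1.00 shrank to 0.09 without both arrays.

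H2-Eb1, the beta chain of the I-E molecule, had the widest split among oil arrays of all members. It read 10.31, 10.22 and 10.10 in E2 uteri, against 9.77, 9.71 and 6.89 in oil uteri. In oviducts the values were 10.30, 10.43 and 10.28 with E2, against 10.31, 10.21 and 7.12 with oil. Both oil replicate 3 arrays read far below the other 10 arrays, which stayed within 9.71 to 10.43. The uterine difference was 1.42 (SE 0.84, limma adjusted p = 0.26) with all arrays and 0.47 (SE 0.082, adjusted p = 0.0016) without both oil replicate 3 arrays. In the oviduct the difference was 1.13 with all arrays and 0.08 without them. Leaving out oil uterus replicate 3 alone gave a uterine difference of 0.47 that did not pass (limma adjusted p = 0.74).

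H2-Ea, which would encode the I-E alpha chain, went the other way in oil replicate 3. Its values were 4.60, 4.43 and 4.33 in E2 uteri and 4.54, 4.31 and 5.19 in oil uteri, 4.31, 4.36 and 4.18 in E2 oviducts and 4.41, 4.49 and 5.48 in oil oviducts. The highest array in each tissue was oil replicate 3, although all values lay below the highest Y-linked value. H2-Eb2, a second E beta gene, lay between 4.79 and 5.67 on all arrays and did not pass in the uterus (0.37, SE 0.15, limma adjusted p = 0.098).

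**Figure D2:**
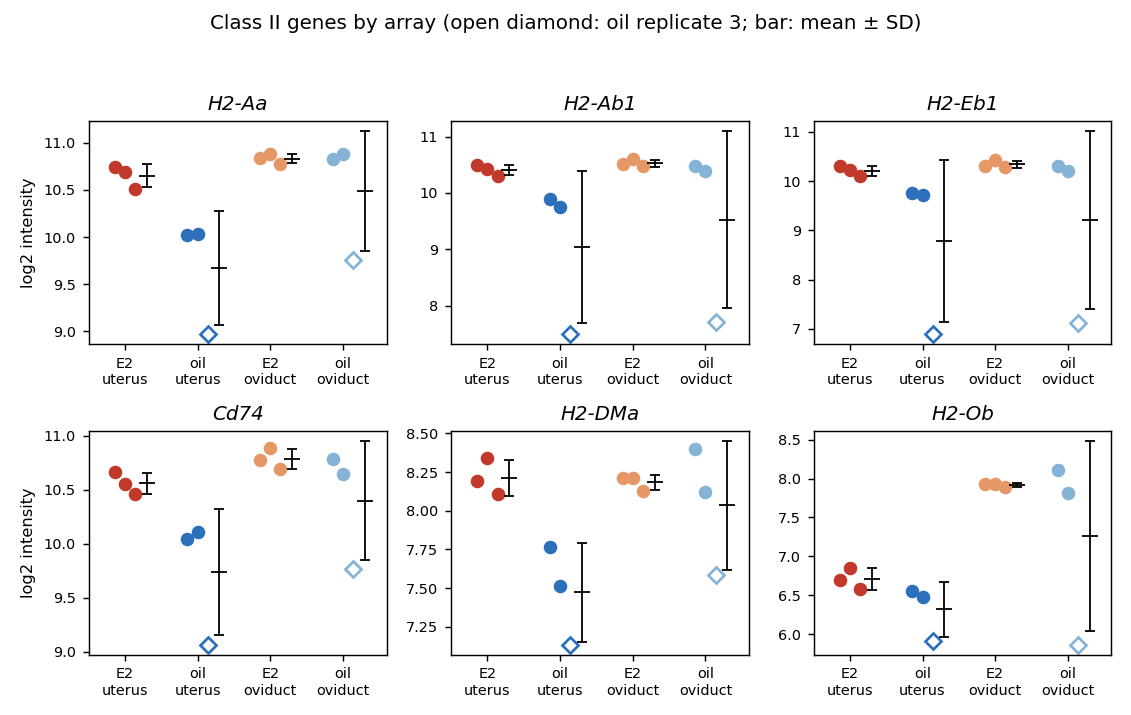
Log2 intensity (vertical axis, scale set per gene) of 6 class II chain and loading genes on each array, by group. Filled circles are single arrays, open diamonds are oil replicate 3, and bars give the mean ± SD (n = 3); for H2-Aa, H2-Ab1, H2-Eb1 and Cd74 the diamonds lie apart in both tissues, while the other oil uteri lie just below the E2 uteri.

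Cd74 is the invariant chain that blocks the class II groove until peptide is available. It read 10.66, 10.56 and 10.46 in E2 uteri, against 10.05, 10.11 and 9.07 in oil uteri. The E2 uteri were all higher, by 0.82 on average (SE 0.28, limma adjusted p = 0.051), and the test was passed without both oil replicate 3 arrays (0.48, SE 0.087, adjusted p = 0.0021). It was also passed without oil oviduct replicate 3 alone (0.82, adjusted p = 0.015), but not without oil uterus replicate 3 alone (0.48, adjusted p = 0.18). H2-DMa, a chain of the exchanger that swaps the invariant chain remnant for peptide, read 8.19, 8.34 and 8.11 in E2 uteri, against 7.76, 7.51 and 7.13 in oil uteri. These groups did not overlap, and H2-DMa rose by 0.74 (SE 0.19, adjusted p = 0.012), or by 0.57 (adjusted p = 0.0028) without both oil replicate 3 arrays. Leaving out oil uterus replicate 3 alone ended that call, at 0.57 (adjusted p = 0.050).

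H2-Ob is the beta chain of a DM inhibitor known from B cells, and it separated the tissues more than it followed E2. It read 6.70, 6.85 and 6.58 in E2 uteri, 6.56, 6.48 and 5.92 in oil uteri, 7.93, 7.93 and 7.89 in E2 oviducts and 8.11, 7.81 and 5.87 in oil oviducts. All oviduct arrays but oil replicate 3 lay above every uterus array. Its E2 difference was 0.39 in the uterus (limma adjusted p = 0.60) and 0.65 in the oviduct (adjusted p = 0.67). These values rested on oil replicate 3: without that array of the same tissue they were 0.19 (adjusted p = 0.86) and -0.04 (adjusted p = 0.99). H2-Oa, the alpha chain of that inhibitor, ranged from 5.50 to 6.21, with a uterine difference of 0.20 (adjusted p = 0.35).

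Ciita, the class II coactivator, read 6.81, 6.85 and 6.68 in E2 uteri, against 6.53, 6.43 and 6.10 in oil uteri. It rose by 0.42 (SE 0.14, limma adjusted p = 0.040), with no overlap, and by 0.30 (adjusted p = 0.013) without both oil replicate 3 arrays. This call was fragile: it ended when any 1 of 8 arrays was left out, namely any E2 uterus or E2 oviduct array, oil uterus replicate 2 or oil uterus replicate 3, with values of 0.30 to 0.47. Nlrc5 was measured by 19 probe sets, and the brightest gave 9.41, 9.38 and 9.06 in E2 uteri, against 9.19, 9.10 and 8.99 in oil uteri. These groups overlapped (0.19, SE 0.099, adjusted p = 0.19). Among its 19 probe sets all had a positive difference in the uterus and 3 passed the test with each probe set adjusted as its own row.

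H2-Q4, from the Q cluster of class I genes, read 9.06, 9.12 and 8.94 in E2 uteri, against 8.40, 8.62 and 8.08 in oil uteri. The groups did not overlap and H2-Q4 rose by 0.67 (SE 0.12, limma adjusted p = 0.0011), a 1.59-fold change, and by 0.53 (adjusted p = 0.00096) without both oil replicate 3 arrays. In oviducts it read 7.95, 8.03 and 7.97 with E2, against 7.85, 7.88 and 8.03 with oil, which overlap.

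H2-Q5, a neighbour of H2-Q4, had 8.48, 8.63 and 8.41 in E2 uteri, against 7.96, 8.07 and 7.15 in oil uteri. Its rise of 0.78 (SE 0.19, limma adjusted p = 0.0085) was cut to 0.49 (adjusted p = 0.0013) without both oil replicate 3 arrays, since oil uterus replicate 3 was the low array. H2-Q2 rose by 0.46 (SE 0.12, adjusted p = 0.012), with 6.96, 6.63 and 6.72 in E2 uteri against 6.50, 6.08 and 6.35 in oil uteri. For H2-Q2 the oil replicate 3 array was not low, and the value without both such arrays was 0.48. Leaving out E2 uterus replicate 1 ended its call at 0.37.

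H2-T24, from the T cluster of class I genes, made the largest called uterine change of the members with all arrays. It read 7.46, 7.78 and 7.80 in E2 uteri, against 6.73, 6.71 and 5.68 in oil uteri. The groups stood well apart, and the rise was 1.31 (SE 0.25, limma adjusted p = 0.0023), a 2.48-fold change. It stood at 0.96 (adjusted p = 0.00021) without both oil replicate 3 arrays. In oviducts H2-T24 read 6.45, 6.74 and 6.72 with E2, against 6.77, 6.88 and 6.26 with oil, with a difference of 0.00.

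H2-K2 read 6.59, 7.00 and 6.91 in E2 uteri, against 5.68, 6.06 and 5.02 in oil uteri. It rose by 1.25 (SE 0.27, limma adjusted p = 0.0052), or 2.37-fold, and by 0.96 (adjusted p = 0.00095) without both oil replicate 3 arrays. It stayed below 7.50 on all arrays, which leaves the size of that change uncertain. H2-M3, which presents peptides that start with formyl-methionine, as bacterial and mitochondrial peptides do, read 7.19, 7.16 and 7.14 in E2 uteri, against 6.87, 6.72 and 6.68 in oil uteri. Its rise of 0.41 (SE 0.075, adjusted p = 0.0017) was small but wider than the spread in either group, and oil replicate 3 was not set apart.

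The other 11 H2-M genes and H2-Q10, H2-Bl and H2-T10 did not pass the E2 test in the uterus. Near-identical copies are common among class I genes, so a probe set named for 1 of them may also bind another, and the split between copies is uncertain. In addition 8 probe sets list several H2 symbols, among them those of the classical class I genes, and no gene is named from them. Of these 8, 4 rose and 0 fell in E2 uteri (median difference 0.70), and 6 rose without both oil replicate 3 arrays, with all probe sets adjusted together. RefSeq lists H2-Bl, H2-Ea, H2-K2, H2-Q5 and H2-T10 as transcribed pseudogenes in its C57BL/6J assembly. H2-Ke6 is an enzyme gene that bears an H2 name from its position. It lay between 7.84 and 8.10 on all arrays.

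**Figure D3:**
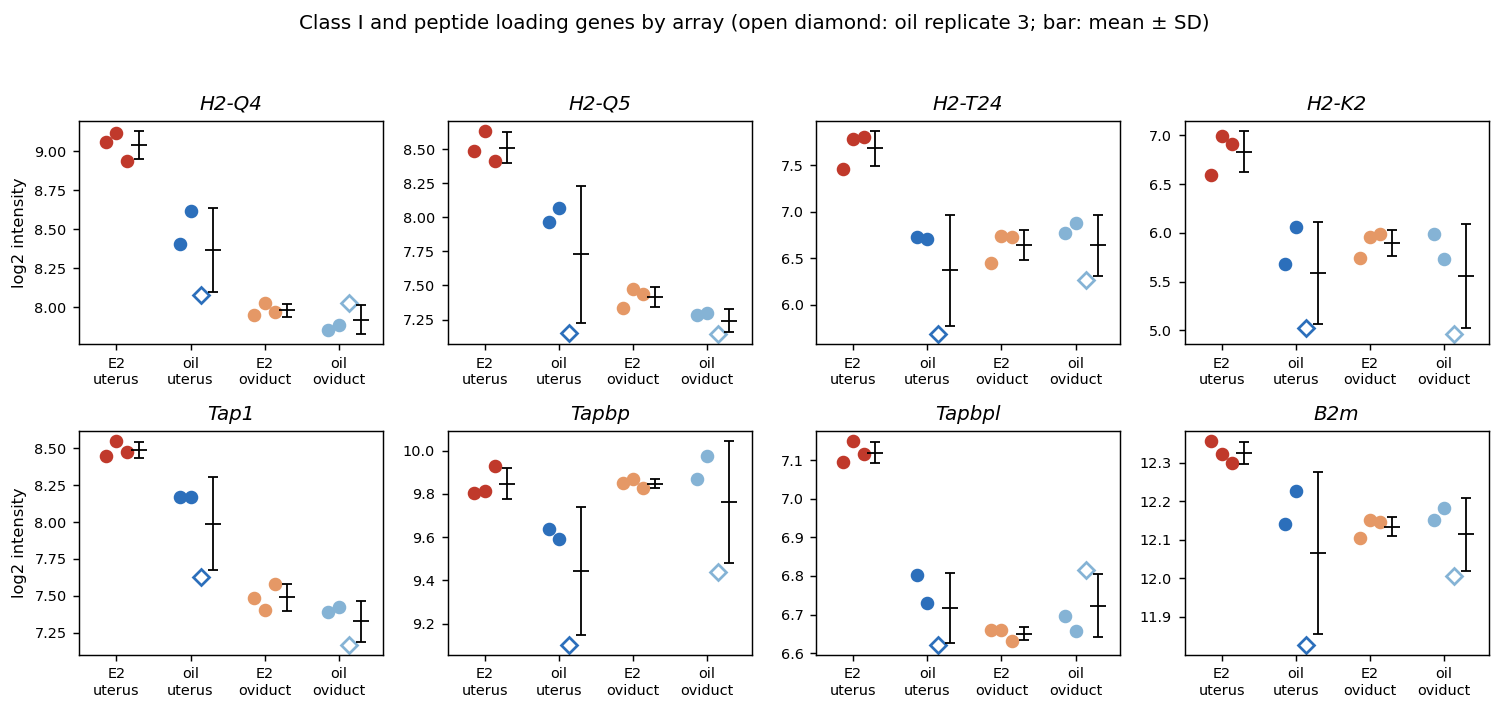
Log2 intensity (vertical axis, scale set per gene) on each array, by group. Shown are 4 class I genes, 3 genes that supply or load peptide and the light chain B2m. RefSeq lists H2-K2 and H2-Q5 as transcribed pseudogenes. Filled circles are single arrays, open diamonds are oil replicate 3, and bars give the mean ± SD (n = 3); in every panel the E2 uteri lie above the oil uteri, and in no panel do E2 and oil oviducts separate except H2-Q5.

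B2m, the shared class I light chain, was high on all arrays, with 12.36, 12.32 and 12.30 in E2 uteri and 12.14, 12.23 and 11.83 in oil uteri. The E2 uteri were all higher, but the difference of 0.26 (SE 0.094) had a limma adjusted p of 0.063, and without both oil replicate 3 arrays it was 0.14 (adjusted p = 0.12). Tap1, a subunit of the peptide pump, read 8.45, 8.55 and 8.47 in E2 uteri, against 8.17, 8.17 and 7.63 in oil uteri. It rose by 0.50 (SE 0.13, adjusted p = 0.015), and by 0.32 (adjusted p = 0.0072) without both oil replicate 3 arrays. Leaving out E2 uterus replicate 2 ended this call at 0.47.

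Tap2, the other subunit of the pump, read 7.64, 7.85 and 7.83 in E2 uteri, against 7.63, 7.52 and 7.63 in oil uteri, a difference of 0.18 (limma adjusted p = 0.098). Tapbp, tapasin, read 9.80, 9.81 and 9.93 in E2 uteri, against 9.64, 9.59 and 9.10 in oil uteri. Its difference of 0.40 (SE 0.15, adjusted p = 0.070) passed the test without both oil replicate 3 arrays, at 0.23 (adjusted p = 0.029). Tapbp also passed without oil oviduct replicate 3 alone (0.40, adjusted p = 0.026), but not without oil uterus replicate 3 alone (0.23, adjusted p = 0.25). Tapbpl, a tapasin relative that edits class I peptides, read 7.09, 7.15 and 7.12 in E2 uteri, against 6.80, 6.73 and 6.62 in oil uteri. It rose by 0.40 (SE 0.067, adjusted p = 0.00086), and by 0.35 (adjusted p = 0.0016) without both oil replicate 3 arrays. Erap1, the trimming peptidase, did not pass (0.12, SE 0.083, adjusted p = 0.38). H2-Eb2, H2-Oa, Nlrc5, Tap2 and Erap1 did not pass without both oil replicate 3 arrays either, with differences of 0.37, 0.17, 0.14, 0.20 and 0.03.

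Ciita, H2-K2, H2-M3, H2-Q2 and Tapbpl stayed below 7.50 on all arrays. All of them but H2-K2 stayed above 5.36, the highest value of the Y-linked genes other than Sry. Of the 11 calls in the uterus, 6 were kept whichever single array was left out: H2-K2, H2-M3, H2-Q4, H2-Q5, H2-T24 and Tapbpl. H2-Q5 and Tap1 moved to 0.49 and 0.32 when oil uterus replicate 3 alone was left out, and both stayed called there.

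For each gene the value on oil replicate 3 was set against the mean of oil replicates 1 and 2 in the same tissue. A difference of more than 1 log2 unit occurred downward for 5 members in the uterus (Cd74, H2-Aa, H2-Ab1, H2-Eb1 and H2-T24), against 0.552% of all genes, and upward for 0, against 0.336%. In the oviduct it occurred downward for 4 (H2-Aa, H2-Ab1, H2-Eb1 and H2-Ob), against 0.692% of all genes, and upward for 2 (H2-Ea and H2-T10), against 0.823%. Each is 1 array without a replicate, so these are descriptions with no test. The shift of H2-Eb1 on oil replicate 3 was already known from earlier results of these data. The folds are of probe signal, the strain is not given, and less RNA and a sequence that binds a probe set less cannot be told apart on these arrays. H2-Eb1 was 7.20-fold lower in the uterus and 8.81-fold lower in the oviduct. H2-Ab1 was 5.04-fold and 6.63-fold lower, and H2-Aa 2.08-fold and 2.14-fold lower, in the same order of tissues.

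Those displacements were not shared by the set as a whole. The median over the 38 members was -0.13 in the uterus and -0.14 in the oviduct, and on the other 10 arrays it ranged from -0.15 to 0.15. Outside class II the members with the largest downward shifts were H2-T24, H2-Q5 and H2-K2 in the uterus (-1.03, -0.87 and -0.85) and H2-K2 and H2-T24 in the oviduct (-0.90 and -0.56), where H2-Q5 differed by -0.15. H2-T10, a T cluster class I gene, read 6.02, 5.86 and 6.48 in oil uteri and 5.16, 5.01 and 6.27 in oil oviducts, so replicate 3 was the high array in both. All 19 Nlrc5 probe sets were lower on oil replicate 3 in both tissues, with median differences of -0.41 and -0.15.

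**Figure D4:**
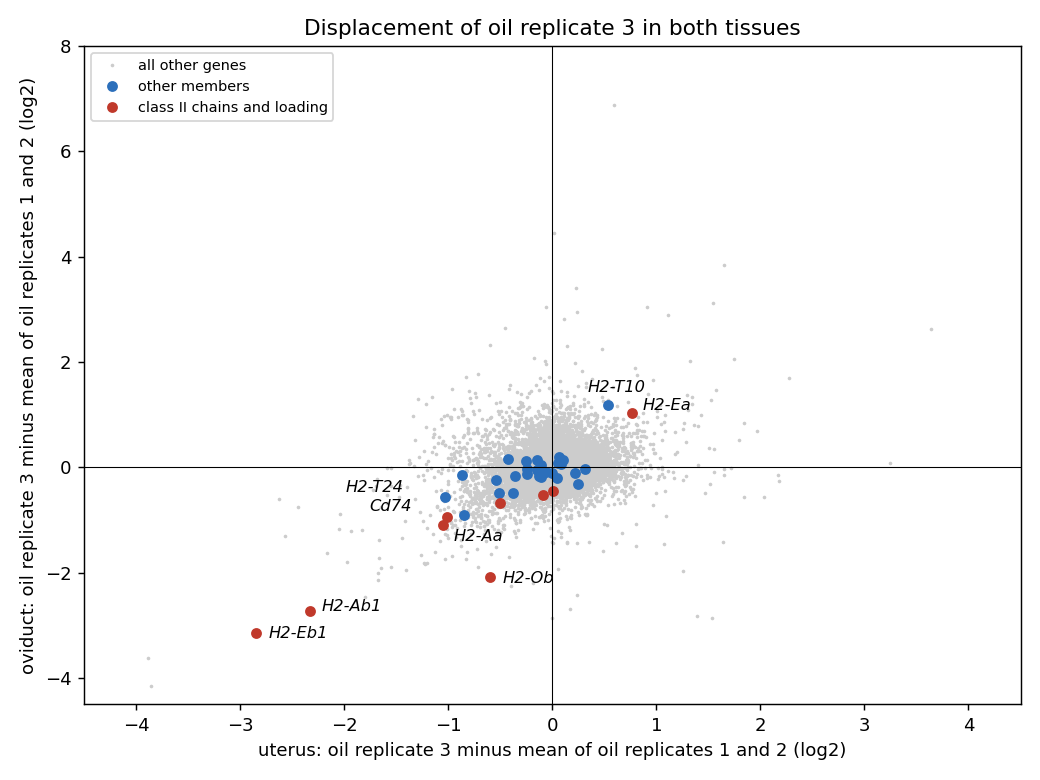
Log2 value on oil replicate 3 minus the mean of oil replicates 1 and 2, in the uterus (horizontal axis) and the oviduct (vertical axis), for every gene (grey), class II chain and loading members (red) and other members (blue). H2-Eb1 and H2-Ab1 lie far down on both axes, H2-Ob mainly on the oviduct axis, and H2-Ea and H2-T10 lie above 0 on both.

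Along chromosome 17 the shifts were gene by gene. The interval from the first to the last member there holds 132 other measured genes. Of these, 2 (AA388235 and D17H6S56E-5, 1.52%) lay over 1 log2 unit lower on oil replicate 3 in the uterus, and the same 2 in the oviduct. AA388235, the measured gene next to H2-K2, differed by -2.05 and -1.17, and D17H6S56E-5 by -1.67 and -1.38. The 3 other measured genes among the class II genes (Brd2, Psmb9 and Psmb8) had differences between -0.32 and 0.03 over both tissues. Tap1 and Tap2, also between class II genes, had -0.54 and 0.05 in the uterus.

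**Figure D5:**
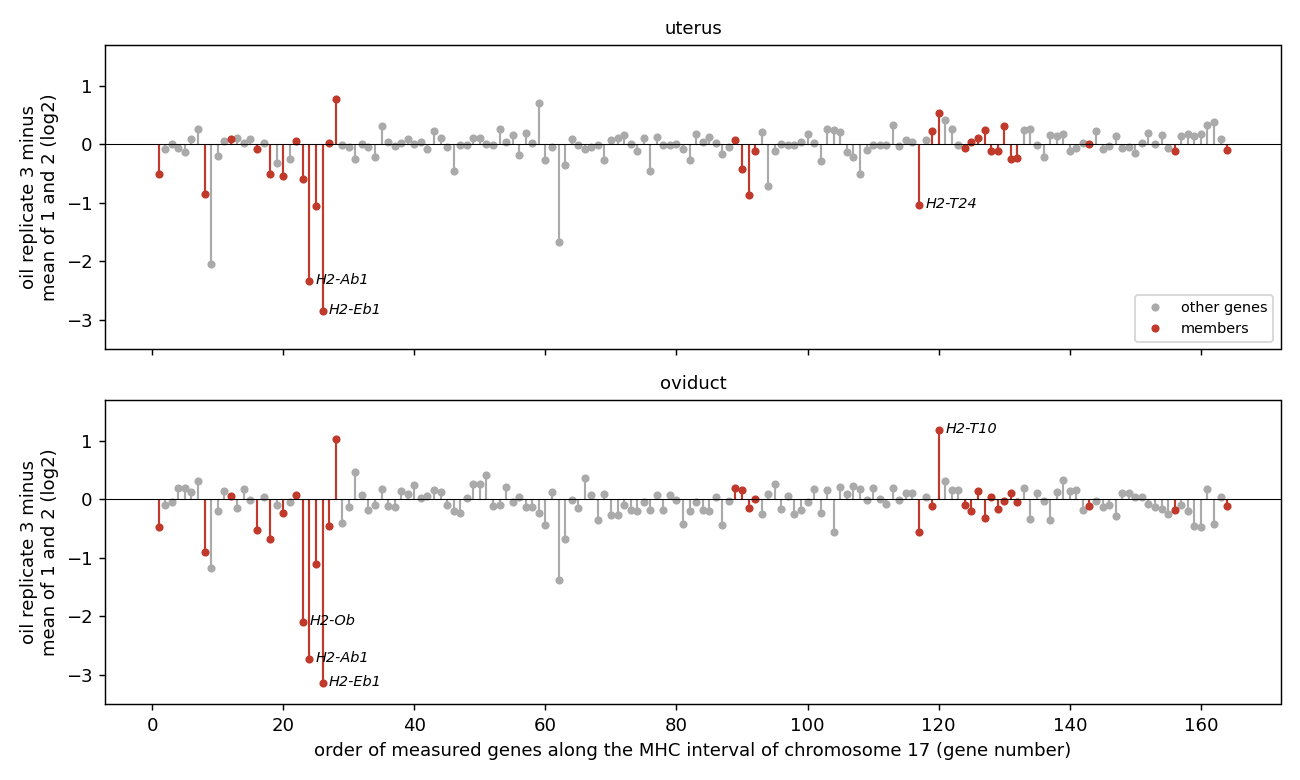
Log2 value on oil replicate 3 minus the mean of oil replicates 1 and 2 (vertical axis) for the measured genes of the MHC interval of chromosome 17 in their order along the chromosome (horizontal axis, gene number), in the uterus (top) and oviduct (bottom). Red stems are members and grey stems other genes; the deep red stems are H2-Ab1 and H2-Eb1 in both panels and H2-Ob in the oviduct, with low-shifted AA388235 and D17H6S56E-5 as the grey exceptions.

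Some sets of leukocyte markers were also lower on oil replicate 3, and others were not. All 5 general leukocyte markers were lower on oil replicate 3 in both tissues, by a median of -0.56 in the uterus and -0.79 in the oviduct. Of 8 dendritic cell markers 6 were lower in the uterus and 8 in the oviduct (medians -0.28 and -0.48), and of 7 macrophage markers 6 and 7 (medians -0.21 and -0.62). Itgax, a dendritic cell integrin, was -1.32 in the uterus and -0.60 in the oviduct, while the dendritic cell factor Zbtb46 was 0.13 and -0.09. Of 4 natural killer cell markers 3 were lower in the uterus (median -1.38, from -1.59 to 0.16) and 4 in the oviduct (median -0.12). In the uterus Itgax and the 3 lower natural killer cell markers thus shifted by more than H2-Aa (-1.05) and Cd74 (-1.01), and by less than H2-Ab1 and H2-Eb1. B cell markers had medians of 0.08 and -0.14. For T cell markers the medians were 0.14 and -0.22, for neutrophil markers 0.01 and -0.24, and for eosinophil markers -0.06 and 0.04. The part of these cells in the class II shift was not tested.

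With E2, general leukocyte and macrophage markers rose in the uterus as well. Of 5 leukocyte markers 4 rose and 0 fell (median 0.66), and of 7 macrophage markers 5 rose and 0 fell (median 0.75), among them Csf1r, the receptor that macrophages need to grow (1.12, SE 0.14, limma adjusted p = 0.00014), and the lysosomal Cd68 (1.22, SE 0.16, adjusted p = 0.00016). The log2 of the summed macrophage markers spanned 11.82 to 11.98 in E2 uteri and 11.02 to 11.29 in oil uteri. For leukocyte markers it spanned 11.51 to 11.53 in E2 uteri and 10.39 to 10.97 in oil uteri. Dendritic cell markers had 0 of 8 higher and 0 lower (median 0.31), with a summed level of 10.00 to 10.13 in E2 uteri and 9.45 to 9.93 in oil uteri; B cell markers had 0 of 3. Of 4 natural killer cell markers 0 rose and 0 fell (median 0.36). Neutrophil markers had 1 of 4 higher (median 0.01), T cell markers 1 of 4 (median 0.13) and eosinophil markers 0 of 4 (median -0.01), with 0 lower. Over all genes 12.4% rose and 14.3% fell. Without both oil replicate 3 arrays 5 of 5 leukocyte, 6 of 7 macrophage and 1 of 8 dendritic cell markers rose, and of the natural killer cell markers Klrb1c rose (0.38, adjusted p = 0.041) and Gzmb fell (-1.32, adjusted p = 0.00062). Epithelial markers rose in 5 of 5 cases (median 1.10) and endothelial markers fell in 4 of 4 (median -0.60). What these shifts in cell markers contribute to the rise of the members was not tested.

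The summed intensity of H2-Aa, H2-Ab1, H2-Eb1 and Cd74 put the E2 and oil replicate 3 patterns side by side. Its log2 was 12.56, 12.49 and 12.35 in E2 uteri, against 11.94, 11.91 and 10.38 in oil uteri. In oviducts it was 12.62, 12.71 and 12.57 with E2, against 12.62, 12.55 and 11.03 with oil. Oil uteri 1 and 2 thus sat below E2 uteri and below all oviducts but oil replicate 3, which was low in both tissues.

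The difference between the E2 effect in the uterus and that in the oviduct passed the limma test for 3 members, all with the greater effect in the uterus, and 0 the other way, against 5.71% and 5.77% of all genes. These were H2-T24 (1.31, SE 0.36, adjusted p = 0.036), H2-Q4 (0.61, SE 0.16, adjusted p = 0.032) and Tapbpl (0.47, SE 0.094, adjusted p = 0.0072). The call of H2-Q4 ended without any 1 of 8 arrays, namely E2 uterus replicates 1 and 2, oil uterus replicate 1, any E2 oviduct array and oil oviduct replicates 2 and 3 (0.56 to 0.63). That of H2-T24 ended without any 1 of 7, namely E2 uterus replicates 2 and 3, any E2 oviduct array and oil oviduct replicates 1 and 2 (1.19 to 1.36). The call of Tapbpl held whichever array was left out. Without both oil replicate 3 arrays 7 members passed and 0 went the other way, against 7.22% and 6.88% of all genes. Class II members joined: H2-Aa at 0.65 (adjusted p = 0.0039), H2-Ab1 at 0.49 (adjusted p = 0.017) and H2-DMa at 0.65 (adjusted p = 0.019), with H2-K2 at 0.93 (adjusted p = 0.017). None of these passed without oil uterus replicate 3 alone. There H2-Aa had 0.28 (adjusted p = 0.73), H2-Ab1 -0.42 (0.85), H2-DMa 0.42 (0.37) and H2-K2 0.63 (0.31). Without oil oviduct replicate 3 alone H2-DMa (0.82, adjusted p = 0.026) and H2-K2 (1.21, adjusted p = 0.032) passed, and H2-Aa and H2-Ab1 did not.

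In E2 mice 13 members were higher in uterus than in oviduct and 0 lower, against 18.9% and 15.2% of all genes. The largest differences were H2-Q5 (1.10, limma adjusted p = 0.00076), H2-Q4 (1.06, adjusted p = 2.6e-05), H2-T24 (1.04, adjusted p = 0.0071), Tap1 (1.00, adjusted p = 0.00011) and H2-K2 (0.94, adjusted p = 0.020). Of the 13, 9 kept their call whichever single array was left out. H2-K2 lost it without E2 uterus replicate 2 or 3 or E2 oviduct replicate 1 (0.86 to 0.90), H2-Bl without E2 uterus replicate 1 or E2 oviduct replicate 2 (0.35 to 0.39), and Nlrc5 without E2 uterus replicate 1 or 2 or E2 oviduct replicate 2 (0.30 to 0.34). H2-Q10 lost it without E2 uterus replicate 1 or 2 or E2 oviduct replicate 2 or 3 (0.26 to 0.28). The low H2-Ob value in E2 uteri compared with E2 oviducts (-1.21) had an adjusted p of 0.052. Without both oil replicate 3 arrays, which enter this comparison only through the shared estimate of spread, 16 members were higher and 2 lower, against 22.1% and 17.3% of all genes. The 2 lower were H2-Ob (-1.21, adjusted p = 3.4e-06) and Cd74 (-0.23, adjusted p = 0.041), and H2-Ob passed without oil oviduct replicate 3 alone too (adjusted p = 9.2e-05).

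In oil mice 4 members were higher in uterus (Erap1, H2-M5, H2-Q4 and Tap1) and 1 lower (H2-DMa), against 21.5% and 17.3% of all genes. Tap1 had 0.66 (limma adjusted p = 0.0017), H2-M5 0.49 (adjusted p = 0.0010), H2-Q4 0.45 (adjusted p = 0.0085), Erap1 0.35 (adjusted p = 0.0047) and H2-DMa -0.56 (adjusted p = 0.034). H2-DMa lost its call without oil uterus replicate 2 or 3 or oil oviduct replicate 1 or 2 (-0.59 to -0.38). Without both oil replicate 3 arrays 6 were higher and 7 lower, against 19.3% and 17.4% of all genes. The 7 lower ones were Cd74 (-0.64), H2-Aa (-0.83), H2-Ab1 (-0.61), H2-DMa (-0.62), H2-Eb1 (-0.52), H2-Ob (-1.44) and Tapbp (-0.31), so 6 of them belong to class II. Tap1 and H2-Q4 were higher in oil uterus there too. The E2 and oil comparisons of a tissue share its arrays with these tissue comparisons, so the values are given side by side and not as separate evidence.

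Of the 5 immunoproteasome genes, which make the peptide-cutting and cap subunits induced by interferon, 4 rose and 0 fell in E2 uteri: Psmb9 (0.39, limma adjusted p = 0.0098), Psmb10 (0.34, adjusted p = 0.021), Psmb8 (0.32, adjusted p = 0.048) and Psme1 (0.28, adjusted p = 0.029). Only Psmb9 and Psme1, 2 of the 5, rose without both oil replicate 3 arrays. The 4 folding helpers of class I went the other way: Hspa5 (-0.82, adjusted p = 0.0029), Calr (-0.57, adjusted p = 0.00036), Pdia3 (-0.37, adjusted p = 0.0066) and Canx (-0.30, adjusted p = 0.0023) all fell, and all 4 fell without those arrays as well. These are general chaperones of the endoplasmic reticulum as well as class I helpers. Over all genes 12.4% rose and 14.3% fell in E2 uteri, shares that also stand beside the lists below.

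Of 8 genes that cut or prepare class II peptides, 4 rose and 0 fell: the cathepsins Ctss (1.24, limma adjusted p = 0.00018), Ctsl (0.96, adjusted p = 0.00012) and Ctsb (0.40, adjusted p = 0.0012), and the thiol reductase Ifi30 (0.49, adjusted p = 0.0031). Lgmn, a lysosomal protease, joined them without both oil replicate 3 arrays (0.36, adjusted p = 0.0029). Of 6 measured class I-like genes outside the H2 names, Cd1d1, which presents lipids, rose (0.61, adjusted p = 0.00069) and the protein C receptor Procr fell (-0.37, adjusted p = 0.0088). Without both oil replicate 3 arrays Mr1, which presents vitamin B metabolites, fell as well (-0.25, adjusted p = 0.029). Of 6 co-stimulation genes, Cd86 (0.62, adjusted p = 0.017) and Cd80 (0.48, adjusted p = 0.016) rose.

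Upstream, interferon gamma itself stayed below 7.50. Ifng read 5.80, 5.97 and 5.89 in E2 uteri, against 5.69, 5.69 and 5.78 in oil uteri, a difference of 0.17 (limma adjusted p = 0.15). Of the 7 genes of its signalling 3 rose and 2 fell in the uterus, where 12.4% of all genes rose and 14.3% fell. The lists are too short for their smaller counts to be told from these shares. Its receptor chains Ifngr2 (0.46, adjusted p = 0.0013) and Ifngr1 (0.39, adjusted p = 0.0031) and the kinase Jak2 (0.30, adjusted p = 0.048) rose. Jak1, the partner kinase (-0.42, adjusted p = 0.0044), and the feedback inhibitor Socs1 (-0.28, adjusted p = 0.033) fell. Of 9 measured factors that act on MHC promoters, Irf1 (0.46, adjusted p = 0.0041) and Irf2 (0.30, adjusted p = 0.0032) rose, and Nfyc, a subunit of the factor that binds the CCAAT box, fell (-0.33, adjusted p = 0.0014). In the oviduct 0 genes of these 7 lists rose or fell with all arrays, and Jak2 fell (-0.55, adjusted p = 0.015) without both oil replicate 3 arrays.

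Class II and class I promoters share an upstream module of X and Y boxes, the Y box being an inverted CCAAT box, and this module recruits Ciita or Nlrc5. RefSeq promoters of GRCm38.p6, from 250 bases before to 50 after the gene start, were searched for 26 of the 38 members. Cd74 and H2-Ab1 were among the members not searched, so the shares of members below leave them out. Those of 2 class II chains that moved together in the values above and of the peptide pump gene Tap1 are shown, 5′ to 3′ on the gene's strand. Capitals mark CCAAT or its reverse complement ATTGG, the X box core GCAACNG, and the cyclic AMP response element TGACGTCA.
H2-Aa: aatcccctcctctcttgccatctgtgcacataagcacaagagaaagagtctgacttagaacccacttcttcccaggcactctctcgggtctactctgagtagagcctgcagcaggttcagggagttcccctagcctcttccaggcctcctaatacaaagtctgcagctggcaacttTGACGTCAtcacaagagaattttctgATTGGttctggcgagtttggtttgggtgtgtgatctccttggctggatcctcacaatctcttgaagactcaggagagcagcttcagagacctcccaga
H2-Eb1: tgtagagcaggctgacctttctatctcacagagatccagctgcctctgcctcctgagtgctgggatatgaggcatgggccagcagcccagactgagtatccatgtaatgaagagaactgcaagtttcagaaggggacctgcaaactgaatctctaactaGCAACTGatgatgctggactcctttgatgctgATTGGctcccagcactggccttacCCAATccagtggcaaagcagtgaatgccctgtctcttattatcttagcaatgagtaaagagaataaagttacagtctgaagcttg
Tap1: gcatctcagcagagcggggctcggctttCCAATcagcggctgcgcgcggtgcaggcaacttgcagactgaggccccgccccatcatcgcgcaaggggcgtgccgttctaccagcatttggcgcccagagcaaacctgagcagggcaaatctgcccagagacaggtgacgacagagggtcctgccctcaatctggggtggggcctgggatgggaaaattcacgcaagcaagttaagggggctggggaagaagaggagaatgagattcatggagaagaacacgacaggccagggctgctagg

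The stretches lie at chr17:34287774-34288073 (minus strand) for H2-Aa, chr17:34305617-34305916 (plus strand) for H2-Eb1 and chr17:34187306-34187605 (plus strand) for Tap1. The inverted box began 59 bases before the start of H2-Eb1 and 48 bases before that of H2-Aa. With both strands searched, CCAAT was found in 23 of 26 member promoters (88.5%) and in 6 of 6 class II ones, against 41.1% of the promoter sets of 27025 genes. The 6 are H2-Aa, H2-Eb1, H2-Eb2, H2-DMa, H2-Oa and H2-Ob, so members with and without an E2 call or a shift on oil replicate 3 both held it. The interferon response motif (GAAA, any 2 bases, GAAA) was in 2 of 26 (7.69%; B2m and Erap1), against 3.99% of genes. GCAACNG was in 4 (15.4%), against 14.3%. TGACGTCA was in 1 (3.85%, H2-Aa), against 2.03%, and its part TGACG, which overlaps it, in 10 (38.5%), against 23.0%. A match is a run of letters and not a measured binding site.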

How the data were processed

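RNA of 12 samples was measured on Affymetrix arrays. The authors deposited an intensity per probe set and array, made with RMA per the submitters' processing notes; its version and any further steps are not stated. Values were linear (all above 0, maxima 9102 to 9950), not log2 as first assumed, and were log2 transformed. Of 35556 probe sets 21789 had 1 gene symbol, 1621 several and 12146 no listed gene, which gave 19938 genes by the brightest probe set. A limma 3.58.1 model (R 4.3.3) was fitted to the 4 groups of all 12 arrays (two-sided, Benjamini-Hochberg over all genes, threshold 0.05), and the fit was tested on simulated data. No intensity filter was used. Members and lists were chosen with earlier results of these data known. Named are the 9 listed genes, the class II genes, members past an E2 test, the most displaced on oil replicate 3, the widest tissue differences and up to 4 called genes per list. AA388235, D17H6S56E-5 and the markers named were chosen after their values were seen. Replicate numbers were not used to pair samples in the main fit. The labels do not state pairing. Correlations of deviations between uterus and oviduct arrays of 1 treatment and number (0 to 0.26) do not settle it. Between E2 and oil arrays of 1 tissue and number, which are different mice, they were -0.20 to 0.19. Precision is limited by the number of arrays, and p-values set a group difference against the spread between these samples, estimated over all groups together. Alternatives were a fit per tissue, replicate blocks, filters, other gene measures, scalings, a pseudocount, array weights, stricter thresholds and leaving out arrays. The result of 1 of the motifs searched is not reported here.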

Additional observations from a re-analysis of the deposited data

Results flagged for a closer look

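The E2 effect differed between the tissues by the test of the difference itself for 3 members (7.89% of 38), all with the greater effect in the uterus, where 5.71% of all genes passed in that direction and 5.77% in the other. It was greater in the uterus than in the oviduct by 1.31 for H2-T24, by 0.61 for H2-Q4 and by 0.47 for Tapbpl (limma adjusted p = 0.036, 0.032 and 0.0072). For Tapbpl the call held whichever single array was left out. That of H2-Q4 ended without any 1 of 8 arrays (0.56 to 0.63) and that of H2-T24 without any 1 of 7 (1.19 to 1.36). So few calls among 38 members cannot be told from the share of all genes called. Tapbpl stayed below 7.50 on all arrays.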

How the results depend on the processing

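The direction of all called E2 changes was the same under every alternative run. The count of members called in the uterus (11) was 8 to 14 when single arrays were left out, 22 with array weights, 6 at an adjusted p under 0.01 and 2 with at least a 2-fold change. Under the same settings, all genes called there (5332) were 4226 to 5887, 8214, 3428 and 686. In the oviduct 0 members were called under all alternatives; all genes called (58) were 14 to 67 without single arrays, 10 with oviduct arrays fitted alone, 264 with array weights, 121 without both oil replicate 3 arrays, 15 at 0.01 and 24 with 2-fold. For the difference of E2 effects (3 members) the counts were 1 to 5 without single arrays, 1 with a filter at the median mean, 7 with array weights, 7 without both oil replicate 3 arrays, 1 at 0.01 and 1 with 2-fold; all genes (2288) were 1571 to 2521, 4531 with array weights, 1053 at 0.01 and 568 with 2-fold. Between tissues in oil mice (5 members) there were 4 to 10 without single arrays (10 without oil oviduct replicate 3), 14 with array weights, 13 without both oil replicate 3 arrays and 0 with 2-fold, where all genes (7725) came to 1558. In E2 mice (13 members) there were 10 to 15 without single arrays, 6 with a filter at the median mean, 7 with a filter at the highest Y-linked value, 20 with array weights and 4 with 2-fold; all genes (6793) were 10554 with array weights and 1225 with 2-fold. Whether uterus and oviduct arrays of 1 number share a mouse is not stated. With the numbers as a replicate block the uterine count was 14, or 12 with treatment by number as a random term. The oviduct count was 0, the difference of effects 3, and the tissue counts 9 (oil) and 14 (E2). This is not a check of pairing by the design. The median shift on oil replicate 3 was -0.13 to -0.12 in the uterus and -0.15 to -0.13 in the oviduct across scalings. The causes were not tested. Signal over background limits the dim members.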
